A study of Mus musculus with 6 samples.

Results

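The genes described here are 39 mouse genes of the interferon response, chosen by name, and their counts are given library by library in RNA sequencing of renal cortex. A row with the gene's name was found for 38 of the 39, and all 38 passed the filter on low counts, out of 13609 genes tested and 21957 genes used. The remaining gene, Mx2, was not analysed here. The samples were cortex of the kidney from mice of the inbred strain C57BL/6, called wild type in the sample titles. In the 3 IR24h samples both renal pedicles, which carry the vessels of the kidney, had been clamped for 30 min, and the kidney was taken after 24 h of reperfusion, an injury used as a model of acute kidney injury. The other 3 samples were sham samples, and what the sham procedure involved was not given in the sources used here. Age and sex of the mice were not given either, nor whether the libraries came from different animals, so p-values measure only the spread between these libraries. The study as titled concerns RNA oxidation in this injury and Isg20, an exonuclease that is itself named as an interferon-stimulated gene.

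Interferons are secreted proteins that warn neighbouring cells of viruses and of nucleic acid out of place. RNA and DNA sensors in the cytosol start their production through factors such as Irf3. Type I interferons bind a receptor of Ifnar1 and Ifnar2, and interferon gamma one of Ifngr1 and Ifngr2. Both receptors signal through Janus kinases to STAT proteins. Stat2 and Irf9 are parts of the complex ISGF3, which binds the interferon-stimulated response element (ISRE) in promoters, while interferon gamma acts through the gamma-activated site (GAS). The target genes include the sensors, Irf7, Stat2 and Irf9 themselves, so the response amplifies itself.

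Libraries held 12877237, 15998975 and 13297772 counts in IR24h 1 to 3, against 14339985, 17061844 and 15952851 counts in sham 1 to 3. Transcripts of the mitochondrial genome took 68.9, 26.2 and 49.2% of the counts in IR24h 1 to 3, against 13.1 to 14.2% in the sham libraries. Levels are given as counts per 1000000 counts (CPM) after TMM scaling, a correction of the library total that assumes most genes do not change. The sham libraries correlated with each other at Pearson r = 0.975 to 0.983 over log CPM of the tested genes, IR24h 1 and 3 at 0.916, and IR24h 2 with the other two IR24h libraries at 0.823 and 0.836. With the sham libraries, IR24h 2 correlated at 0.848 to 0.859, higher than with the other IR24h libraries, while IR24h 1 and 3 did so at 0.747 to 0.796. IR24h 2 thus stood apart from the other IR24h libraries, and sham 1 stands apart from the other sham libraries in the genes described here. The injury markers Havcr1, Lcn2 and Krt20, summed, reached 1040, 2962 and 1550 CPM in IR24h 1 to 3, against 2.40, 1.78 and 2.0 CPM in sham 1 to 3, so sham 1 was at the level of the other sham libraries. The values of the groups were also made differently: the gene length implied by the deposited counts and FPKM differed between the groups for 1681 of 12806 genes and within groups for 0, and this is named below beside genes it touches by more than 0.1 on the log2 scale.

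The clearest pattern among the interferon response genes was a single sham library. Sham 1 held the highest of the 6 values for 26 of the 38 genes, among them Ifit1, Ifit3, Irf7, Usp18, Isg15, Bst2 and Stat2, and the highest sham value for 34. The highest of the 6 was IR24h 2 for 5 genes (22.9% of all), IR24h 3 for 5 (18.9% of all) and IR24h 1 for 2 (22.5% of all). Between the groups, by edgeR's quasi-likelihood test with Benjamini-Hochberg adjustment over all 13609 tested genes, 1 of the 38 was called higher in IR24h (Ifngr2) and 0 were called lower, where 8.65% of all tested genes were called higher and 7.62% lower at an adjusted p under 0.05. At an unadjusted p under 0.05 there were 2 higher, Ifngr1 and Ifngr2, and 1 lower, Cmpk2. Summed over the 38 genes, the level was 756, 570 and 906 CPM in IR24h 1 to 3, against 1742, 603 and 541 CPM in sham 1 to 3. The sum in sham 1 thus lay above that of every IR24h library, that in sham 2 within their range and that in sham 3 below it.

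**Figure D1:**
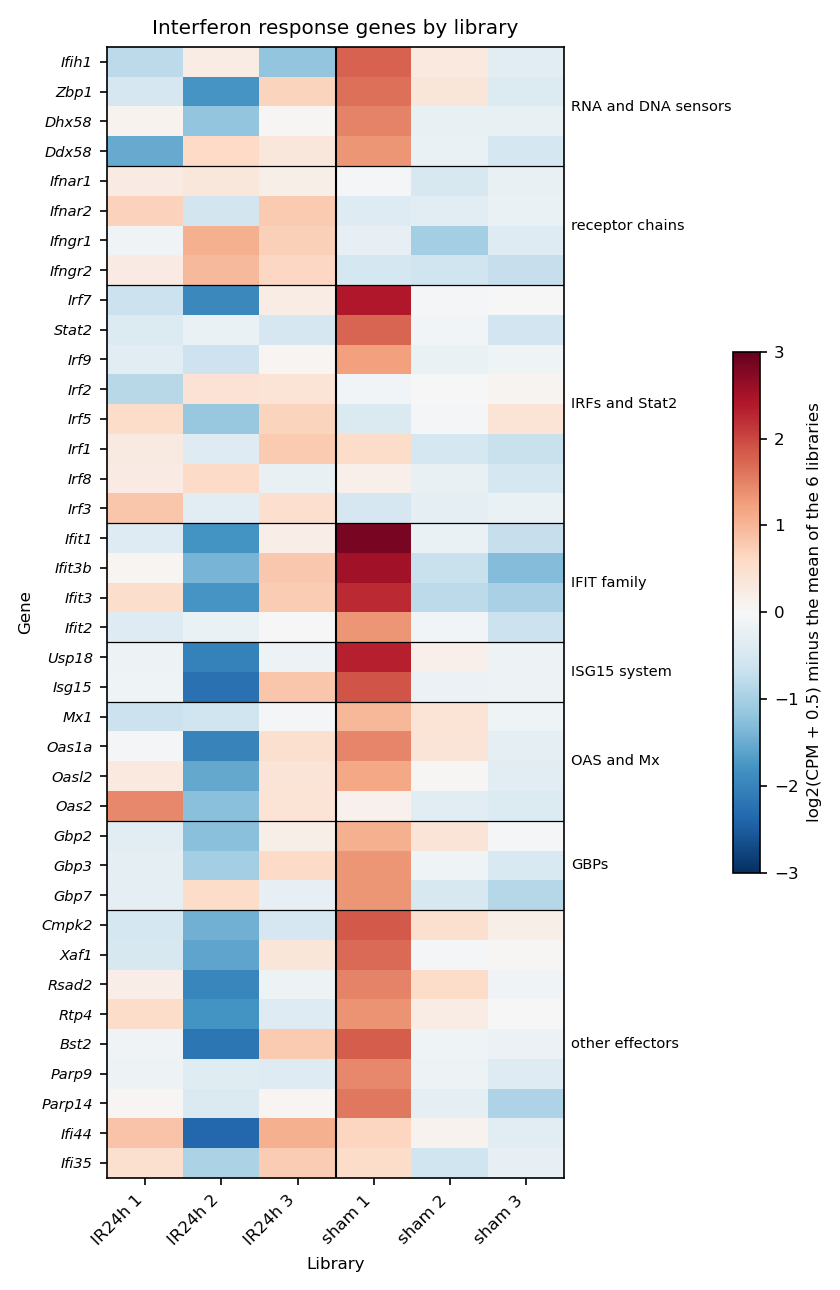
Levels of the 38 genes (rows, by role) in each library (columns, IR24h left of the line), as log2(CPM + 0.5) minus the gene's mean over the 6 libraries, red above and blue below it. The column of sham 1 is red in most rows, and that of IR24h 2 is blue in many of the same rows. The receptor chains are mostly red in the IR24h columns, except Ifnar2 in IR24h 2 and, slightly, Ifngr1 in IR24h 1.

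A gene was counted for a library when its level there was at least 2-fold above each of the other 2 libraries of its own group. In IR24h 1 this held for 2 of the 38 genes (4.29% of all tested genes), in IR24h 2 for 1 (13.3% of all) and in IR24h 3 for 2 (2.99% of all). In sham 1 it held for 24 of the 38 genes, 63.2%, where it held for 1.29% of all tested genes. In sham 2 and sham 3 it held for 0 of the 38 (0.478% and 0.860% of all). The same count downwards, at least 2-fold below each other library of the group, gave 2 genes in IR24h 1 (5.56% of all), 19 in IR24h 2 (15.0% of all) and 0 in IR24h 3 (4.64% of all), and 0 in sham 1, 2 and 3 (1.39%, 1.39% and 2.01% of all). With a 3-fold threshold the counts were 12 below for IR24h 2 (7.21% of all) and 13 above for sham 1 (0.514% of all). When only library size was scaled for, IR24h 2 had 8 genes (4.79% of all) and sham 1 had 24 (1.34% of all). Taken over the 38 genes, the median log2 distance from the mean of the other 2 libraries of the group was −1.25 in IR24h 2 and 1.45 in sham 1, against −0.02 and 0.00 over all tested genes.

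**Figure D2:**
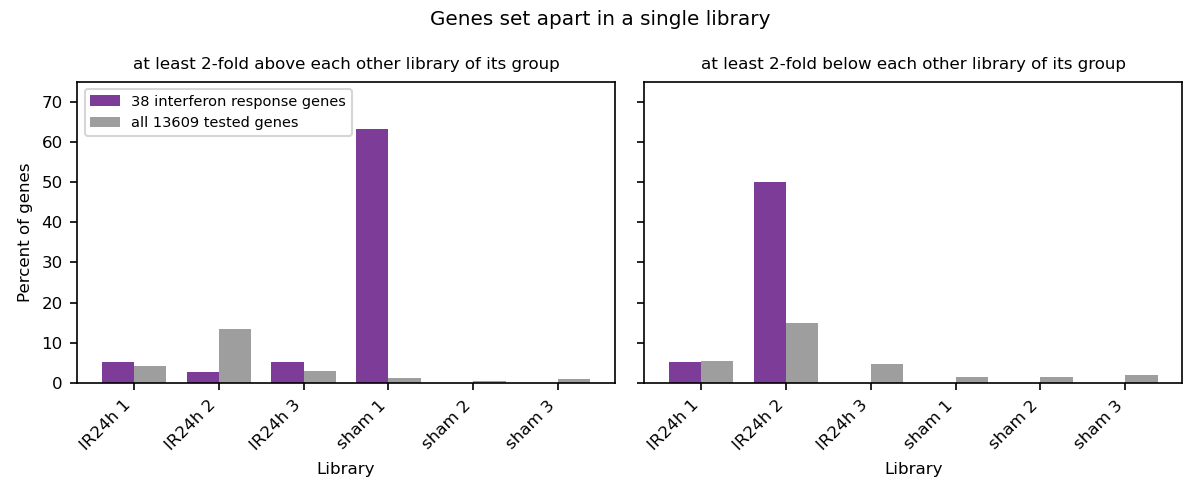
Percent of the 38 interferon response genes (purple) and of all tested genes (grey) that were at least 2-fold above (left) or below (right) each of the other 2 libraries of their group, for each library on the horizontal axis. The purple bars stand out for IR24h 2 on the right, at 19 of 38 genes, and for sham 1 on the left, at 63.2%.

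The sensors were highest in sham 1, all 4 of them. Ddx58, which encodes RIG-I, a sensor of uncapped RNA ends, had 11.9, 53.4 and 44.6 CPM in IR24h 1 to 3, against 88.4, 30.3 and 24.2 CPM in sham 1 to 3. Its levels in IR24h 2 and 3 lay above those of sham 2 and 3, and IR24h 1 lay below every other library. Ifih1, which encodes MDA5, a sensor of long double-stranded RNA, had 9.66, 20.0 and 7.17 CPM in IR24h 1 to 3, against 59.4, 20.9 and 13.5 CPM in sham 1 to 3. The groups overlapped through IR24h 2 alone, which lay between sham 2 and sham 3. Dhx58 (LGP2, a regulator of both) and Zbp1, a sensor of nucleic acid in the Z form, had at most 5.11 and 6.73 CPM in the IR24h libraries and 14.3 and 13.8 CPM in sham 1. For both genes, sham 2 and 3 lay within the IR24h range. In the fit over all libraries the log2 fold changes of IR24h over sham of the 4 sensors were −1.34 ± 0.62 (Ifih1), −1.11 ± 0.82 (Zbp1), −0.94 ± 0.65 (Dhx58) and −0.37 ± 0.66 (Ddx58), each ± SE, with edgeR adjusted p between 0.176 and 0.718. Without IR24h 2, Ifih1 was called lower (log2 fold change −1.91, adjusted p = 0.04996).

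The receptor chains went the other way. All 4 had a positive log2 fold change, and none of them was 2-fold above in sham 1. Ifngr2, the signalling chain of the interferon gamma receptor, had 29.8, 49.6 and 38.7 CPM in IR24h 1 to 3, against 17.4, 16.4 and 15.4 CPM in sham 1 to 3. Every IR24h library was above every sham library, with group means of 39.4 ± 9.92 CPM in IR24h and 16.4 ± 1.02 CPM in sham (SD, n = 3 each). The log2 fold change was 1.26 ± 0.27 (SE), edgeR adjusted p = 0.0216. Without sham 1, 2 or 3 the gene was no longer called (adjusted p = 0.102, 0.116 and 0.108), nor was it without TMM scaling, on library size alone (0.289). The gene length implied for Ifngr2 was also shorter in the IR24h libraries by 0.84 on the log2 scale, which cannot be told apart from the groups. Its part in the fold change was not tested.

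Ifngr1, the chain of the same receptor that binds the ligand, had 28.8, 66.0 and 51.3 CPM in IR24h 1 to 3, against 26, 15.1 and 23.8 CPM in sham 1 to 3. The groups did not overlap, but IR24h 1 lay only just above sham 1 (log2 fold change 1.17 ± 0.37, adjusted p = 0.0710). Ifnar1, a chain of the type I receptor, had 49.4, 52.5 and 46.5 CPM in IR24h 1 to 3, against 39.6, 29.5 and 35.1 CPM in sham 1 to 3, also without overlap (log2 fold change 0.51 ± 0.23, adjusted p = 0.168). Its implied length was shorter in IR24h by 0.13 on the log2 scale. Ifnar2, its partner chain, had 39.3, 16.5 and 42.1 CPM in IR24h 1 to 3, against 18.6, 19.0 and 21.1 CPM in sham 1 to 3. Here IR24h 2 lay below all sham libraries and IR24h 1 and 3 above them (log2 fold change 0.74 ± 0.37, adjusted p = 0.206), and without IR24h 2 it was called higher (1.05, adjusted p = 0.00356). Ranges that did not overlap were found for these 3 of the 38 genes upwards (Ifngr1, Ifngr2 and Ifnar1; 19.9% of all tested genes) and for 1 downwards (Cmpk2; 21.7% of all). When only library size was scaled for, the counts were 0 upwards and 10 downwards, where 9.22% of all tested genes lay apart upwards and 29.8% downwards. Ifnar2, Ifnar1 and Ifngr2 lie in 1 cluster on chromosome 16, between 91372783 and 91565623 in GRCm38, the assembly also called mm10.

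**Figure D3:**
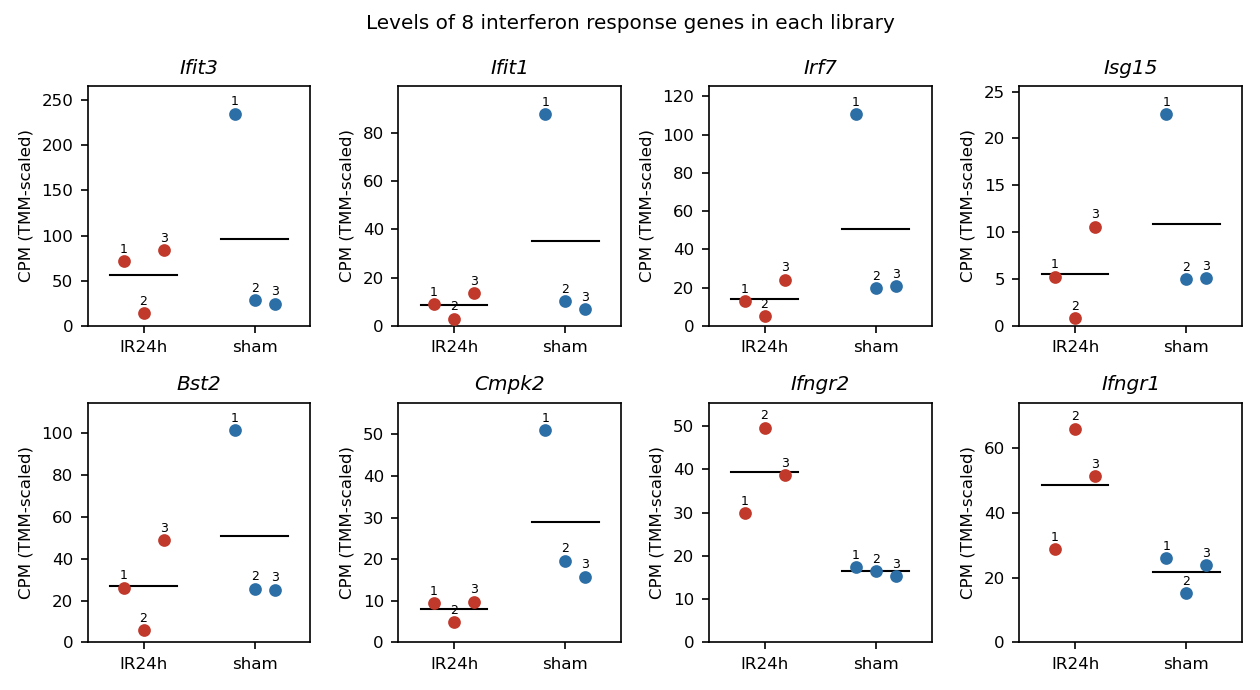
Level in CPM (linear axes from 0) of 8 genes in each library, IR24h red and sham blue, with the replicate number above each point and a line at the group mean. Sham 1 lies far above sham 2 and 3 for the first 6 genes and by less than 2-fold for Ifngr2 and Ifngr1.

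Among the 8 transcription factors, Irf7, Stat2, Irf9 and Irf1 were at least 2-fold above in sham 1 and the other 4 were not. Irf7, which in mice drives the late wave of interferon alpha genes and is itself strongly interferon-induced, had 12.9, 5.06 and 24.2 CPM in IR24h 1 to 3, against 111, 19.7 and 20.7 CPM in sham 1 to 3. Sham 1 was 5.36-fold above the next sham library (95% exact counting interval 4.80 to 6.00), while sham 2 and 3 lay within the IR24h range (log2 fold change −1.84 ± 0.83, adjusted p = 0.161). Counting intervals here cover counting error only. Stat2 had 16.8, 19.5 and 15.7 CPM in IR24h 1 to 3, against 76.9, 21.2 and 14.9 CPM in sham 1 to 3. Irf9 had 19.0, 15.5 and 25.3 CPM in IR24h 1 to 3, against 57.3, 20.8 and 22 CPM in sham 1 to 3. For Stat2, sham 2 lay just above and sham 3 just below the IR24h libraries, and for Irf9 both lay within the IR24h range. Sham 1 was 3.62-fold (Stat2) and 2.60-fold (Irf9) above the next sham library. The log2 fold changes were −1.12 ± 0.59 for Stat2 and −0.74 ± 0.45 for Irf9 (adjusted p = 0.225 and 0.280).

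Irf1, an early target of interferon gamma and of other cytokines, had 21.6, 13.4 and 31.3 CPM in IR24h 1 to 3, against 26.4, 12.2 and 11 CPM in sham 1 to 3. Sham 1 was 2.17-fold above sham 2, yet IR24h 3 was higher still, and the groups overlapped (log2 fold change 0.42 ± 0.45, adjusted p = 0.548). Irf3, a factor present before any interferon that is activated by phosphorylation, had 95.6, 42.4 and 76.5 CPM in IR24h 1 to 3, against 37.3, 43.3 and 46.3 CPM in sham 1 to 3. IR24h 1 and 3 were above all sham libraries and IR24h 2 was among them (log2 fold change 0.76 ± 0.33, adjusted p = 0.156), and without IR24h 2 it was called higher (1.02, adjusted p = 0.00545). Irf2, known as an antagonist of Irf1, had 8.95, 21.9 and 21.7 CPM in IR24h 1 to 3, against 15.3, 16.3 and 17.1 CPM in sham 1 to 3. Irf8, a factor of macrophages, dendritic cells and B cells, had 23.4, 29.3 and 16.9 CPM in IR24h 1 to 3, against 21.7, 16.8 and 13.4 CPM in sham 1 to 3. Irf5, a factor downstream of Toll-like receptors, had 14.6, 4.24 and 15.9 CPM in IR24h 1 to 3, against 7.14, 9.57 and 13.2 CPM in sham 1 to 3. For these 3 genes sham 1 was not set apart, the groups overlapped and adjusted p was between 0.374 and 0.846. Of the exon bases of Irf5, 14.1% lie opposite Tnpo3, and since the strand setting of the libraries is not given, reads from there cannot be assigned to either gene.

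The IFIT family, whose proteins bind foreign RNA and block its translation, held the steepest steps between sham libraries. Its 4 members lie side by side on chromosome 19, between 34550694 and 34650009 in GRCm38. Ifit3 had 71.3, 14.1 and 83.7 CPM in IR24h 1 to 3, against 235, 28.5 and 24.7 CPM in sham 1 to 3. Sham 1 was 8.25-fold above sham 2 (7.56 to 9.0), while sham 2 and 3 lay below IR24h 1 and 3 and above IR24h 2. Ifit3b had 12.6, 4.24 and 21.5 CPM in IR24h 1 to 3, against 71.4, 7.36 and 4.58 CPM in sham 1 to 3, with the same order of libraries except that sham 3 and IR24h 2 were nearly level. Ifit3 and Ifit3b share 51.2% and 45% of their exonic 50-base stretches, most of it with each other, so their separate counts are uncertain. Ifit1 had 8.95, 3.07 and 13.6 CPM in IR24h 1 to 3, against 87.8, 10.2 and 7.07 CPM in sham 1 to 3. Sham 1 was 8.58-fold above sham 2 (7.43 to 9.94), and sham 2 and 3 lay within the IR24h range. Ifit2 had 12.4, 14.2 and 16.3 CPM in IR24h 1 to 3, against 41.5, 15.3 and 10.4 CPM in sham 1 to 3, a step of 2.70-fold between sham 1 and sham 2. In the fit, log2 fold changes were −2.04 ± 1.01 (Ifit1), −1.12 ± 1.05 (Ifit3b), −0.77 ± 0.98 (Ifit3) and −0.65 ± 0.51 (Ifit2), none called (adjusted p between 0.199 and 0.612).

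Promoter sequences are shown for IFIT genes and Isg15, whose ISRE cores stand close together, and for Irf7 and Ifngr2, which have none in this window. RefSeq promoters (250 bases before the start of transcription to 50 after it, GRCm38.p6) were matched for 30 of the 39 genes. The stretches below run 5′ to 3′ on the strand of the gene, all of them before the start, and capitals mark each match to the ISRE core GAAANNGAAA on either strand.
Ifit3, chr19:34583363-34583482, plus strand: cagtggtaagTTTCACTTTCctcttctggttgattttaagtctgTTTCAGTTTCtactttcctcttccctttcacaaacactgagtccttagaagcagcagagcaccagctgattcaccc
Ifit3b, chr19:34607759-34607878, plus strand: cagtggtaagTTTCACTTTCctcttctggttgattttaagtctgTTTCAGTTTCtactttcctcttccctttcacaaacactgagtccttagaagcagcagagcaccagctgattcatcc
Ifit1, chr19:34640769-34640888, plus strand: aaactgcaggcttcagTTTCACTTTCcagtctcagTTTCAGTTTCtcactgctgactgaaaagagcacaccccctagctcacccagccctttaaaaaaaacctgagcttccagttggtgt
Isg15, chr4:156200819-156200938, minus strand: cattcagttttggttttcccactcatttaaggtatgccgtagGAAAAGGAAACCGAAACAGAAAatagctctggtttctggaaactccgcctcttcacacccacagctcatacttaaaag
Irf7, chr7:141266425-141266544, minus strand: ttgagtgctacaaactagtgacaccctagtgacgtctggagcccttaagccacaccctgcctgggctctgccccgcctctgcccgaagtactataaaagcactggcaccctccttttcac
Ifngr2, chr16:91546939-91547058, plus strand: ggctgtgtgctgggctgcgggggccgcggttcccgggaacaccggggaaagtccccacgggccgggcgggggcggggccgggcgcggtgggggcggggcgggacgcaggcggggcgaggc
The stretches of Ifit3 and Ifit3b were identical in 119 of 120 bases. The ISRE core was present in a promoter of 14 of the 30 matched genes, 46.7%, against 3.44% of all 32851 single promoters searched. Some of the 30 genes, such as Gbp3, had 2 promoters and counted if either matched, so shares of genes stand beside shares of promoters here. The GAS core TTCNNNGAA, also searched on both strands, was present in 10 of the 30 genes, 33.3%, against 8.30% of all promoters, and in Bst2 it overlapped an ISRE match. Of the 18 matched genes that were at least 2-fold above in sham 1, 11 held the ISRE core and 5 the GAS core, and of the other 12 matched genes 3 held the ISRE core and 5 the GAS core. A match describes letters in this window only. None of the 4 receptor chains had an ISRE core there, nor did Cmpk2, Ifit2, Irf1, Irf7, Irf9, Oasl2 or Xaf1, which were at least 2-fold above in sham 1.

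Isg15, a ubiquitin-like protein that is attached to others during the response, had 5.26, 0.818 and 10.6 CPM in IR24h 1 to 3, against 22.6, 5.00 and 5.12 CPM in sham 1 to 3. IR24h 2, with 16 counts, was the lowest library and sham 1 was 4.41-fold above the next sham library (log2 fold change −0.99 ± 0.92, adjusted p = 0.485). The implied length of Isg15 was longer in the IR24h libraries by 0.10 on the log2 scale. Usp18, the protease that removes Isg15 from its targets and dampens signalling at the type I receptor, had 5.11, 1.02 and 5.16 CPM in IR24h 1 to 3, against 30.9, 6.39 and 5.12 CPM in sham 1 to 3. Sham 1 was 4.83-fold above sham 2, and IR24h 1 and 3 were close to sham 2 and 3 (log2 fold change −1.94 ± 0.86, adjusted p = 0.160). In Isg15 and Usp18, as in Ifit1, Ifit3 and Ifit3b, IR24h 2 was the lowest and sham 1 the highest of the 6 libraries.

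The oligoadenylate synthetases make the messenger that activates the ribonuclease RNase L. Oasl2, a family member, had 22.2, 5.88 and 23.9 CPM in IR24h 1 to 3, against 40.8, 18.6 and 14.1 CPM in sham 1 to 3. Sham 1 was highest, but IR24h 1 and 3 lay above sham 2 and 3 (log2 fold change −0.51 ± 0.60, adjusted p = 0.583). Oas2 stood apart from the rest of its group: its highest library was IR24h 1, with 17.0, 2.25 and 8.13 CPM in IR24h 1 to 3, against 6.62, 4.76 and 4.37 CPM in sham 1 to 3 (log2 fold change 0.78 ± 0.65, adjusted p = 0.434), and without IR24h 2 it was called higher (1.24, adjusted p = 0.0312). Oas1a stayed between 0.818 and 6.90 CPM in IR24h and between 3.88 and 14.2 CPM in sham, and shares 57.6% of its 50-base stretches, most with Oas1g. Mx1, a GTPase against influenza viruses of which C57BL/6 mice are known to carry a defective allele, had 0.568, 0.613 and 1.14 CPM in IR24h 1 to 3, against 2.85, 1.73 and 1.02 CPM in sham 1 to 3. Its groups overlapped where IR24h 3 met sham 3 (log2 fold change −1.26 ± 0.56, adjusted p = 0.157).

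The guanylate-binding proteins are large GTPases that attack the vacuoles of pathogens, and Gbp2, Gbp3 and Gbp7 lie together on chromosome 3 between 142530342 and 142638008 in GRCm38. Gbp2 had 9.09, 4.6 and 13.2 CPM in IR24h 1 to 3, against 25.1, 15.5 and 11.3 CPM in sham 1 to 3. Gbp3 had 11.1, 6.49 and 20.8 CPM in IR24h 1 to 3, against 35.1, 12.4 and 9.87 CPM in sham 1 to 3. Gbp7 had 15.8, 28.7 and 16.3 CPM in IR24h 1 to 3, against 49.6, 13.8 and 10.6 CPM in sham 1 to 3. Sham 1 was the highest library for all 3, by 1.62-fold over sham 2 for Gbp2, 2.83-fold for Gbp3 and 3.58-fold for Gbp7. IR24h 2 was the lowest library for Gbp2 and Gbp3 and the second highest for Gbp7. The log2 fold changes were −0.95 ± 0.47 (Gbp2), −0.58 ± 0.60 (Gbp3) and −0.28 ± 0.60 (Gbp7), with adjusted p between 0.192 and 0.773.

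Cmpk2, a mitochondrial nucleotide kinase, and Rsad2, which encodes the antiviral enzyme viperin, are neighbours on opposite strands of chromosome 12. Cmpk2 had 9.52, 4.80 and 9.79 CPM in IR24h 1 to 3, against 51.1, 19.7 and 15.8 CPM in sham 1 to 3. It was the only one of the 38 genes whose 3 IR24h libraries lay below all 3 sham libraries, sham 2 and 3 included (log2 fold change −1.85 ± 0.53, edgeR adjusted p = 0.0519, just over the threshold). It passed the threshold with DESeq2 (adjusted p = 0.00554), with no filter on low counts (0.0435), when only library size was scaled for (0.0330) and without IR24h 2 (0.0476), but not when any other single library was left out (between 0.0794 and 0.170). Rsad2 had 19.2, 3.88 and 14.9 CPM in IR24h 1 to 3, against 47.7, 24.6 and 15.4 CPM in sham 1 to 3. Its step between sham 1 and sham 2 was 1.94-fold, and IR24h 1 lay above sham 3 (log2 fold change −1.22 ± 0.63, adjusted p = 0.215).

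Bst2, tetherin, which holds budding virus on the cell surface, had 26.1, 5.88 and 48.9 CPM in IR24h 1 to 3, against 101, 25.7 and 25.1 CPM in sham 1 to 3. Sham 2, sham 3 and IR24h 1 were nearly level, with IR24h 3 and sham 1 above them and IR24h 2 below (log2 fold change −0.91 ± 0.81, adjusted p = 0.464). Parp14, an ADP-ribosyltransferase, had 30.5, 21.9 and 30.9 CPM in IR24h 1 to 3, against 91.2, 24.2 and 15.5 CPM in sham 1 to 3. Parp9, which pairs with the ubiquitin ligase Dtx3l, had 21.9, 18.9 and 18.6 CPM in IR24h 1 to 3, against 67.5, 21.9 and 18.8 CPM in sham 1 to 3. For these genes, too, sham 2 and 3 fell among or beside the IR24h libraries and sham 1 stood alone, 3.76-fold above sham 2 for Parp14 and 3.08-fold for Parp9. Parp9 overlaps Dtx3l on the opposite strand over 9.4% of its exon bases. Xaf1, a regulator of cell death, had 5.40, 2.25 and 10.2 CPM in IR24h 1 to 3, against 26.3, 7.6 and 8.04 CPM in sham 1 to 3, again with sham 1 alone far above (log2 fold change −1.24 ± 0.68, adjusted p = 0.241). Rtp4, a chaperone of receptors, had at most 9.52 CPM in IR24h libraries and 17.0 CPM in sham 1, while sham 2 and 3 lay within the IR24h range. Ifi35 and Ifi44 were the exceptions of this group, with positive log2 fold changes of 0.28 ± 0.50 and 0.25 ± 0.79 (adjusted p = 0.724 and 0.844). Ifi35 had 27.6, 9.92 and 33.3 CPM in IR24h 1 to 3, against 28.9, 12.8 and 16.5 CPM in sham 1 to 3, and 16.8% of its exon bases lie opposite Gm11626. Ifi44 had 20.2, 1.74 and 23.7 CPM in IR24h 1 to 3, against 17.5, 11.9 and 8.58 CPM in sham 1 to 3. In both genes IR24h 3 was highest and IR24h 2 lowest, and the direction of both turned when only library size was scaled for.

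Over all 38 genes the median log2 fold change of IR24h over sham was −0.76, against 0.05 over all tested genes. Of the 38, 26 were below 0, where 48.0% of all tested genes were. Leaving out sham 1 brought the median to 0.07 and left 16 of 38 below 0, with 0 called in either direction (2.03% of all genes tested in that fit were called higher and 1.70% lower). Leaving out sham 2 or sham 3 instead left 26 of 38 below 0. Leaving out IR24h 2 alone gave 4 called higher (Ifnar2, Ifngr2, Irf3 and Oas2) and 2 called lower (Cmpk2 and Ifih1), where 23.9% of all genes tested in that fit were called higher and 24.5% lower. In a fit chosen after seeing the data, without sham 1 and without IR24h 2, the median was 0.40, 10 of 38 were below 0, and 9 of 38 were called higher and 0 lower, where 17.3% of all genes tested in that fit were called higher and 17.0% lower. The 9 were Ifi35, Ifi44, Ifit3, Ifit3b, Ifnar2, Ifngr2, Irf1, Irf3 and Oas2. Ifit3, for example, had 71.3 and 83.7 CPM in IR24h 1 and 3, against 28.5 and 24.7 CPM in sham 2 and 3 (log2 fold change 1.55 ± 0.24, edgeR adjusted p = 0.00743). That fit rests on 2 libraries a group, picked for how the genes behave, so it shows how far these libraries set the direction and is no independent test.

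**Figure D4:**
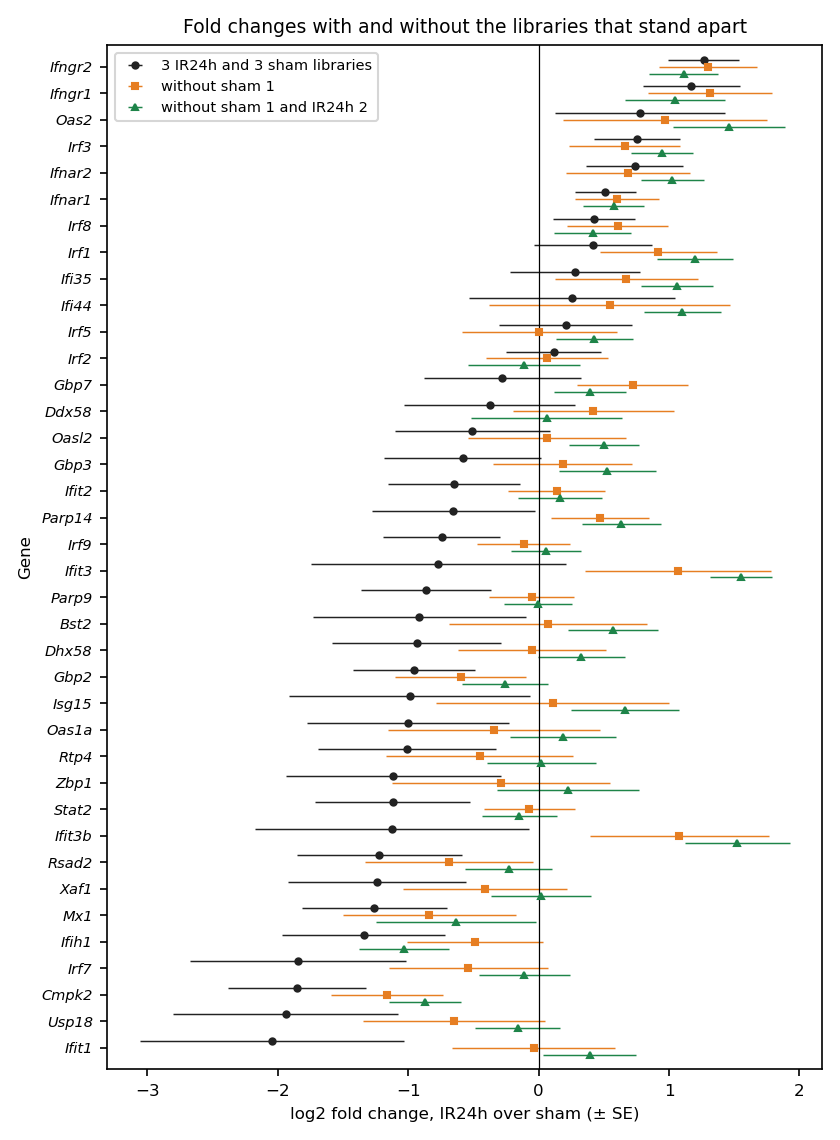
Log2 fold change of IR24h over sham with its standard error for each of the 38 genes, in the fit over all libraries (black circles), without sham 1 (orange squares) and without sham 1 and IR24h 2 (green triangles). Most black points lie left of 0, at a median of −0.76, and the orange points lie around 0, at a median of 0.07, while the receptor chains at the top keep their place.

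Levels per length were read from the deposited FPKM values, which scale counts by gene length and library total, and only within a library. Ifit3 was first of the 38 genes in IR24h 1 (22.3 FPKM), IR24h 3 (41.3 FPKM) and sham 1 (152 FPKM). Bst2 was first in sham 2 (25.6 FPKM) and sham 3 (23.6 FPKM). In IR24h 2 the first were Ifngr1 (19.4 FPKM) and Ifngr2 (17.3 FPKM), ahead of Ifit3 (9.88 FPKM). The FPKM of Ifngr2 carries the shorter length implied for it in the IR24h libraries, and the part of that length in its place was not tested. Mx1 was last by the group means of FPKM in both groups.

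The wider pathway was read from 120 other genes, of which 117 were found and 95 were tested. By the same edgeR test, 3 were called higher in IR24h (Isg20, Socs3 and Tmem173) and 5 lower (Gbp10, Gbp6, Igtp, Znfx1 and Tlr9), and the median log2 fold change was −0.31. These were 3.16% and 5.26% of the 95, against 8.65% and 7.62% of all tested genes. Sham 1 was at least 2-fold above both other sham libraries for 34 of the 95, or 35.8%, against 1.29% of all tested genes. Of the 175 tested genes that met this rule, 58, or 33.1%, were interferon genes of the 1 list or the other, and of the 62 with a mean of at least 10 CPM over the libraries it was 36, or 58.1%. The 21 interferon genes looked up, among them Ifnb1 and 13 of the interferon alpha genes, had 0, 0 and 5 counts in all in IR24h 1 to 3, against 0, 1 and 0 counts in sham 1 to 3. The 5 counts were of Ifng and Ifna11 in IR24h 3, and the 1 count was of Ifnz in sham 2. In sham 1 no ligand transcript was detectable at this depth, where a count of 0 allows up to 3 counts.

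The GTPases induced by interferon gamma on the wider list, which were not among the 39, were also highest in sham 1. For several of them sham 2 and 3 lay above every IR24h library as well. Such ranges apart downwards were found for 13 of the 95 tested genes of the wider list, or 13.7%, against 21.7% of all tested genes. Igtp, also called Irgm3, had 6.82, 6.49 and 11.4 CPM in IR24h 1 to 3, against 173, 26.3 and 22.4 CPM in sham 1 to 3, and was called lower (log2 fold change −3.17 ± 0.84, adjusted p = 0.0423). Gbp6 had 4.55, 3.07 and 2.80 CPM in IR24h 1 to 3, against 122, 21.8 and 11.3 CPM in sham 1 to 3, and was called lower (log2 fold change −3.91 ± 0.91, adjusted p = 0.0279). In both, the libraries sham 2 and 3 were also above every IR24h library. Without sham 1, Gbp6 remained called (−2.28, adjusted p = 0.0476) and Igtp did not (−1.58, adjusted p = 0.0750). Without sham 2, IR24h 1 or IR24h 3 neither was called (adjusted p between 0.0554 and 0.0922 for Gbp6, and between 0.0628 and 0.128 for Igtp), nor was Igtp without sham 3 (0.0607). Gbp6 shares 70.7% of its 50-base stretches with other genes, most with Gm43302, which overlaps 29.0% of its exon bases on the same strand, so its counts are uncertain. Gbp10, called lower as well, had 0, 7 and 0 counts in IR24h 1 to 3, against 324, 117 and 30 counts in sham 1 to 3, and shares 84.1% of its 50-base stretches, most with Gbp6. It was not called without sham 1, sham 2, IR24h 1 or IR24h 3 (adjusted p between 0.0697 and 0.0819). Of the 13 tested GTPases of this list, 13 were highest in sham 1 and 13 had a log2 fold change below 0. The implied length of Iigp1, one of them, was shorter in IR24h by 1.88 on the log2 scale.

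**Figure D5:**
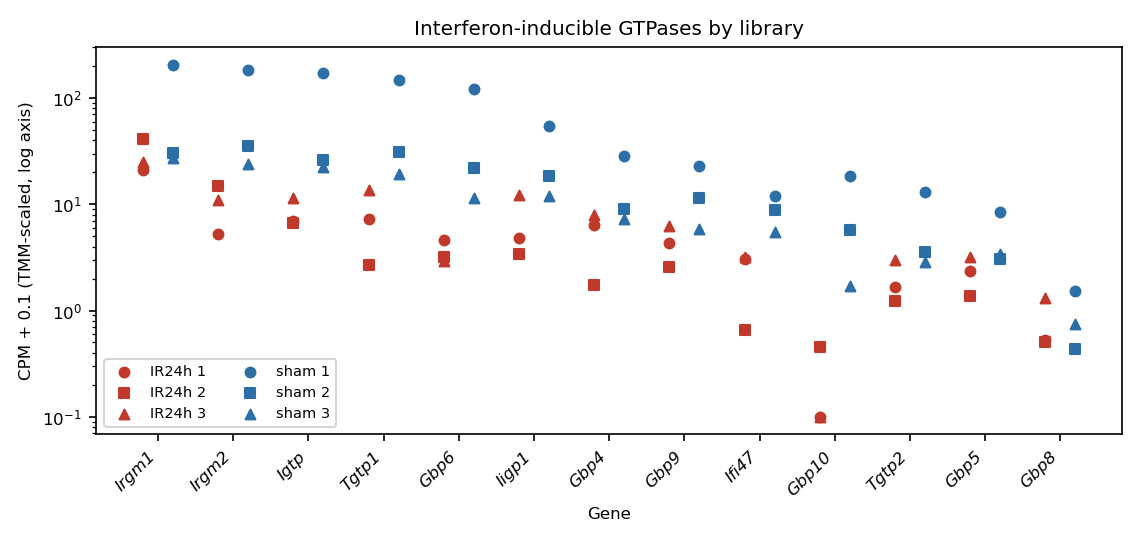
Level of the 13 tested interferon-inducible GTPases in each library, as CPM + 0.1 on a log axis, IR24h red and left of sham blue for each gene, with circles, squares and triangles for replicates 1, 2 and 3. The blue circle (sham 1) is the top point for every gene, and for Igtp and Gbp6 the other blue points also lie above all red ones.

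The rest of the pathway moved in both directions. Znfx1, a helicase-like sensor of RNA, had 42.3, 37.8 and 43.7 CPM in IR24h 1 to 3, against 172, 124 and 93.4 CPM in sham 1 to 3, and was called lower (log2 fold change −1.65 ± 0.29, adjusted p = 0.0122), with all 3 sham libraries above all 3 IR24h libraries. It was not called without sham 1 or without sham 2 (adjusted p = 0.0644 and 0.0602). Tlr9, a receptor for DNA, had 4, 5 and 5 counts in IR24h 1 to 3, against 53, 42 and 21 counts in sham 1 to 3, and was called lower (log2 fold change −2.36 ± 0.59, adjusted p = 0.0349). Of the fits that left out 1 library, only the one without IR24h 2 called Tlr9 (adjusted p between 0.0611 and 0.161 in the others). Isg20 had 19.7, 5.42 and 12.1 CPM in IR24h 1 to 3, against 2.34, 1.54 and 1.51 CPM in sham 1 to 3, and was called higher (log2 fold change 2.78 ± 0.52, adjusted p = 0.0146). All its IR24h libraries lay above all sham libraries, sham 1 was 1.52-fold above sham 2, and no fit with 1 sham library left out called it (adjusted p between 0.0564 and 0.0800). Socs3, an inhibitor of cytokine receptors that is best known as a target of Stat3, had 44.5, 41.4 and 26.9 CPM in IR24h 1 to 3, against 2.34, 1.39 and 2.21 CPM in sham 1 to 3 (log2 fold change 4.24 ± 0.36, adjusted p = 0.00107). Socs1, the inhibitor best known from interferon signalling, had 6, 6 and 13 counts in IR24h 1 to 3, against 42, 23 and 17 counts in sham 1 to 3 (log2 fold change −0.99 ± 0.65, adjusted p = 0.321), and its implied length was shorter in IR24h by 2.20 on the log2 scale. Tmem173, which encodes the DNA-sensing adaptor STING, was called higher (log2 fold change 2.58 ± 0.33, adjusted p = 0.00408), but its implied length was shorter in IR24h by 1.58 on the log2 scale.

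The 8 most abundant genes of the wider list were B2m, H2-D1, H2-K1 and Tapbp of class I antigen presentation, Samd9l, Lgals3bp, Jak1 and Ifi27, and none of them was called (adjusted p between 0.130 and 0.879). B2m had 243, 185 and 518 CPM in IR24h 1 to 3, against 386, 245 and 246 CPM in sham 1 to 3, and H2-D1, H2-K1 and Tapbp were likewise highest in IR24h 3. Ifi27 had 40.3, 12.6 and 58.4 CPM in IR24h 1 to 3, against 288, 56.0 and 70.0 CPM in sham 1 to 3. Lgals3bp had 116, 49.0 and 58.2 CPM in IR24h 1 to 3, against 368, 81.7 and 77.0 CPM in sham 1 to 3. Sham 1 was 4.12-fold (Ifi27) and 4.51-fold (Lgals3bp) above the next sham library, against 1.57-fold for B2m, 1.33-fold for H2-D1 and 1.01-fold for H2-K1, so these class I genes stayed under the 2-fold mark. Of the 10 class I genes on the list 3 did pass it: Nlrc5, a transactivator of class I genes (3.82-fold), Tap1, a peptide transporter (3.53-fold), and Psmb9, an immunoproteasome subunit (2.62-fold). The implied lengths of H2-D1, H2-K1, Tapbp and Psmb9 were shorter in IR24h by 0.22, 0.55, 0.55 and 0.15 on the log2 scale. Samd9l had 117, 125 and 125 CPM in IR24h 1 to 3, against 222, 168 and 137 CPM in sham 1 to 3. Jak1, a kinase of both receptors, had 65.5, 207 and 76.0 CPM in IR24h 1 to 3, against 137, 137 and 114 CPM in sham 1 to 3, and was set apart in IR24h 2 alone.

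Markers of leukocytes were set beside these levels, since interferon genes are expressed in many cell types, and since in bulk tissue fewer cells of a type and less RNA per cell cannot be told apart. Summed over 10 macrophage and monocyte genes (11 rows, Itgam having 2), the level was 122, 73.1 and 207 CPM in IR24h 1 to 3, against 90.8, 84.5 and 88.7 CPM in sham 1 to 3. Sham 1 was thus close to the other sham libraries in this sum, and IR24h 2 was the lowest IR24h library. The same held for the sum of 5 neutrophil genes, with 13.9, 5.93 and 17.2 CPM in IR24h 1 to 3, against 1.31, 0.817 and 0.701 CPM in sham 1 to 3. Of these 5, S100a8 and S100a9 had their lowest IR24h value in IR24h 2, but Csf3r and Cxcr2 had it in IR24h 1. With few counts in sham, S100a8, S100a9 and Csf3r were called higher in IR24h. Their log2 fold changes were 4.24, 5.46 and 2.18 (edgeR adjusted p = 0.0356, 0.00593 and 0.0281). Ly6g had 0 counts in every library. Csf1r, the largest part of the macrophage sum in IR24h 1 with 56.5 CPM, had an implied length shorter in IR24h by 0.40 on the log2 scale. Single macrophage genes differed from the sum: Adgre1 had 0.284, 3.63 and 0.350 CPM in IR24h 1 to 3, against 4.40, 4.52 and 4.32 CPM in sham 1 to 3. Ms4a7 and Ccr2 were not lowest in IR24h 2 among the IR24h libraries. Cd68 was called higher in IR24h (log2 fold change 2.38 ± 0.29, edgeR adjusted p = 0.00364). Both rows of Itgam were called higher too (4.12 and 3.01, adjusted p = 0.00940 and 0.0178). The other macrophage genes, Adgre1 included, were not called. Plasmacytoid dendritic cells, a source of type I interferon, were read from 3 genes. Their sum was 0.426, 0.409 and 0.0874 CPM in IR24h 1 to 3, against 0.685, 1.54 and 0.270 CPM in sham 1 to 3. The defining marker of these cells, Siglech, had 0, 3 and 0 counts in IR24h 1 to 3, against 0, 2 and 0 counts in sham 1 to 3. It was thus too low in every library to tell them apart. Summed over 6 dendritic cell genes the level was 12.4, 7.36 and 14.1 CPM in IR24h, against 14.2, 18.2 and 11.2 CPM in sham. Zbtb46 was the largest part of this sum, and for Zbtb46, Itgax and Flt3 the groups overlapped. Clec9a had 0, 0 and 2 counts in IR24h 1 to 3, against 34, 38 and 17 counts in sham 1 to 3. It was called lower (log2 fold change −4.65 ± 0.98, edgeR adjusted p = 0.0204). Xcr1 and Cd209a, also with few counts, were lower in every IR24h library than in any sham library. Over 7 genes of T and NK cells the sum was 0, 0.818 and 6.29 CPM in IR24h, against 2.40, 3.85 and 2.05 CPM in sham, and over 4 B cell genes it was at most 1.84 CPM in any library. The 3 endothelial genes summed to 150, 37.2 and 156 CPM in IR24h 1 to 3, against 138, 145 and 126 CPM in sham 1 to 3, so endothelial markers were also lowest in IR24h 2. Between the groups they differed. Kdr had 25.1, 14.0 and 19.7 CPM in IR24h 1 to 3, against 64.1, 67.2 and 48.1 CPM in sham 1 to 3. It was called lower (log2 fold change −1.61 ± 0.30, edgeR adjusted p = 0.0146). Emcn and Pecam1 were above all sham libraries in IR24h 1 and 3, and neither was called. The part of these markers in the low interferon genes of IR24h 2 was not tested. As markers of kidney segments, 5 proximal tubule genes summed to 562, 1913 and 669 CPM in IR24h, against 8861, 9763 and 8870 CPM in sham. The 3 podocyte genes summed to 70.7, 217 and 97.5 CPM in IR24h, against 297, 317 and 250 CPM in sham. The 2 genes of the thick ascending limb summed to 3032, 1440 and 4671 CPM in IR24h, against 1656, 1710 and 2384 CPM in sham. Since these sums differed between the groups, they do not check the label of renal cortex in the IR24h libraries.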

How the data were processed

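RNA of the renal cortex was sequenced in 3 IR24h and 3 sham libraries, grouped by the treatment in the labels. The submitters' processing notes list CASAVA 1.8, TopHat2 2.0.6 and the builds mm10 and GRCh38. The counter, the annotation and the strand setting were not given in the sources used here. As deposited, per the file headers, the authors' values are raw counts per gene and FPKM values, scaled by gene length and library total. Counts were the main measurement, and FPKM served for levels per length within a library and for the implied gene length (count over FPKM, compared for genes with at least 5 counts at a tolerance of 0.01 on the log2 scale).

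Of 22040 genes listed, 83 had no sham value and were left out. In the table, 26 symbols that had turned into dates were restored from their identifiers. Rows were matched to the 39 genes by name, and positions and shared sequence (50-base stretches) came from GENCODE M21 (GRCm38). Counts were tested with edgeR 4.0.16 in R 4.3.3: filterByExpr, TMM scaling, quasi-likelihood fit of IR24h against sham, 2-sided, with Benjamini-Hochberg adjustment over the 13609 genes tested and a threshold of 0.05. The script was tested on simulated data. Library-level counts, medians and motif counts are descriptions without a test. Total counts were 12877237 to 17061844 a library. The alternatives were RLE scaling, library size only, no filter, no mitochondrial genes, the replicate number as a block, DESeq2 1.42.0, limma-voom (limma 3.58.1), other fold thresholds and leaving out each library. A fit without sham 1 and IR24h 2 was added after seeing the data. Values are given in every library for those of the 39 with a mean of at least 10 CPM, those called and the 8 with the largest fold change, and of the wider pathway list for called genes, the 8 with the highest mean CPM, the interferon genes, Isg20 and Socs1. A further gene named by this rule is not reported here. Other genes are given by ranges, and a few were named after their values were seen. The 39 genes and the other lists were chosen with earlier results of these data known.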

Additional observations from a re-analysis of the deposited data

How the results depend on the processing

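RLE scaling and leaving out the mitochondrial genes changed neither direction nor call for any of the 38 genes, with 1 called higher and 0 lower in each. Of all tested genes, 1177 were called higher and 1037 lower in the main analysis, against 398 and 611 with library size only, 2073 and 1695 with DESeq2, and 246 to 3297 and 196 to 3382 when libraries were left out, the highest without IR24h 2. Among the 38 genes, 0 were called higher with library size only, 2 with DESeq2 and 0 to 9 with libraries left out. Called lower was 1 with library size only, 1 without the count filter, 1 with DESeq2 and 0 to 2 with libraries left out. Of the wider pathway, 6 were called higher and 13 lower with DESeq2, 3 lower with limma-voom, and 2 to 17 higher and 0 to 11 lower with libraries left out. The median log2 fold change of the 38 genes was −1.298 with library size only, where that of all tested genes moved to −0.39, and −1.085 to 0.395 with libraries left out. Ranges that did not overlap numbered 0 upwards and 10 downwards with library size only, where 9.22% and 29.8% of all tested genes lay apart. With libraries left out they numbered 3 to 8 upwards and 1 to 8 downwards. Fewer libraries make ranges come apart more easily for any gene. The share of all tested genes was 19.9% upwards and 21.7% downwards with all libraries, and is not given for fewer. These counts are thus not read as a change in the 38 genes. IR24h 2 was 2-fold below for 8 genes with library size only and 3-fold below for 12, and sham 1 was 3-fold above for 13. With library size only, the log2 fold changes of Ifi35 (−0.325), Ifi44 (−0.452), Irf1 (−0.118), Irf2 (−0.213), Irf5 (−0.412), B2m (−0.391) and H2-K1 (−0.145) turned negative, and with limma-voom those of Ifi44 (−0.589) and Irf5 (−0.071) did, while Gbp7 turned positive (0.059). With libraries left out, the sign turned in these ranges of log2 fold change: Bst2 −1.687 to 0.571, Ddx58 −0.746 to 0.419, Dhx58 −1.243 to 0.329, Gbp3 −1.137 to 0.528, Gbp7 −0.624 to 0.721, Ifi35 −0.063 to 1.063, Ifi44 −0.247 to 1.102, Ifit1 −2.584 to 0.394, Ifit2 −0.962 to 0.163, Ifit3 −1.215 to 1.549, Ifit3b −1.748 to 1.523, Irf2 −0.110 to 0.421, Irf5 −0.108 to 0.609, Irf9 −1.002 to 0.059, Isg15 −1.938 to 0.662, Oas1a −1.660 to 0.187, Oas2 −0.039 to 1.457, Oasl2 −0.829 to 0.499, Parp14 −1.025 to 0.635, Rtp4 −1.760 to 0.022, Xaf1 −1.912 to 0.017, Zbp1 −2.155 to 0.229, B2m −0.451 to 0.634, H2-D1 −0.614 to 0.346, Jak1 −0.876 to 0.127 and Lgals3bp −1.716 to 0.137. None of these genes was called in the main analysis, and beyond the scaling and the libraries named the cause was not tested. With the replicate block 0 of the 38 genes were called higher (Ifngr2 had a log2 fold change of 1.24, adjusted p = 0.0503), 1 lower (Cmpk2, −1.72, adjusted p = 0.0447) and 3 of the wider pathway lower, and Gbp7 (0.051), Ifi44 (−0.239) and B2m (−0.011) turned sign. Libraries of the same number did not deviate together (correlations of deviations −0.11, 0.12 and 0.23), so the numbers were not taken as pairs. Depth limits Tlr9, Gbp10, Socs1, Isg15, Mx1, Oas1a, Zbp1, Ifitm1 and the interferon genes, among others, which had 16 or fewer counts in at least 1 library.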

Other observations

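Of the 62 genes that averaged 10 CPM or more and stood at least 2-fold above both other sham libraries in sham 1, 26 were on neither interferon list. Whether these 26 respond to interferon was not examined. They included Rnf213, a giant ubiquitin ligase, with 46.7, 91.4 and 53.3 CPM in IR24h 1 to 3, against 294, 84.7 and 51.3 CPM in sham 1 to 3. They also included Kcnj16, a potassium channel subunit of the distal tubule, with 135, 57.6 and 224 CPM in IR24h 1 to 3, against 591, 69.2 and 49.0 CPM in sham 1 to 3. C4b, a complement component, had 7.10, 16.1 and 7.08 CPM in IR24h 1 to 3, against 63.5, 8.75 and 22.4 CPM in sham 1 to 3. These 3 were picked after their values were seen, and none was called between IR24h and sham (edgeR adjusted p = 0.241 for Rnf213, 0.604 for Kcnj16 and 0.1505 for C4b).

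The chemokine Cxcl10, a target of both interferon types, had 14.6, 8.95 and 39 CPM in IR24h 1 to 3, against 12.5, 3.51 and 3.51 CPM in sham 1 to 3 (log2 fold change 1.68 ± 0.71, edgeR adjusted p = 0.141). Ifitm1, a membrane protein that hinders viral entry, had 12.8, 1.07 and 30.8 CPM in IR24h 1 to 3, against 0.856, 0.817 and 1.67 CPM in sham 1 to 3 (log2 fold change 3.73 ± 1.05, adjusted p = 0.0509). Irgm2 had 5.11, 14.8 and 10.8 CPM in IR24h 1 to 3, against 183, 35.0 and 23.8 CPM in sham 1 to 3 (log2 fold change −2.96 ± 0.83, adjusted p = 0.0504). Each of these 3, too, was named after its values were seen.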
